A study of Homo sapiens with 15 samples.

Results

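What reversed when cyclin E1 induction was ended was read from the 3 recovery and the 3 adapted libraries, 6 of the 15 RNA-seq libraries of this study, chosen by their sample labels. RPE1-hTERT, a line from human retinal pigment epithelium kept dividing by telomerase, carried CCNE1 in the doxycycline-inducible pINDUCER20 vector and was grown from a single colony, so all groups are 1 clone. Adapted cells were kept in 20 ng/ml doxycycline for 39, 41 and 51 d (replicates 1, 2 and 3). Recovery cells, labelled as re-adapted, had 31, 42 and 46 d with doxycycline and then 18, 46 and 17 d without it. Control cells carried the same construct and received no doxycycline, and acute cells (2 d) and crisis cells (15, 18 and 18 d) were on 20 ng/ml. The replicates came from adaptations started at different times, and adapted and recovery libraries with the same number are not stated to share a culture. Values are TPM, a share of each library's transcripts corrected for length, and they keep no record of sequencing depth.

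Cyclin E1 binds and activates the kinase CDK2, and together they phosphorylate RB and start DNA synthesis. Cells normally hold the complex to the end of G1, and the ubiquitin ligase subunit FBXW7 marks cyclin E for destruction. Excess cyclin E shortens G1, leaves fewer origins licensed and places replication under stress. The comparison asked which transcripts went back when the excess was taken away from cells that had adapted to it.

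On removal of doxycycline CCNE1 mRNA fell close to the level of cells that had never been induced, and so did 2 neighbouring transcripts on chromosome 1. Of 10196 genes whose mean over all 15 libraries reached 5 TPM, limma called these 3 lower in recovery cells and 0 higher, at a Benjamini-Hochberg adjusted p under 0.01 (0.0294% of tested genes). Before adjustment, 508 genes were higher (4.98%) and 210 lower (2.06%) at p under 0.05 from limma. The 3 recovery libraries lay above all 3 adapted libraries for 925 genes (9.07%) and below them for 340 (3.33%). The lean towards higher values moved with the scaling. The unadjusted counts were 390 higher and 371 lower once libraries were rescaled by median-of-ratios factors, and 547 higher and 556 lower after a correction for the GC content of genes. By name, the groups of genes that stood highest in recovery cells were inflammatory cytokines and extracellular matrix, and those that stood lowest were the genes of mitosis, but 0 members of these lists passed the adjusted threshold.

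Some properties of the libraries touch these values. Across 10185 genes, the deviation of a library from each gene's mean had a Spearman's rho with GC content of −0.58 to −0.19 in the adapted, −0.48 to −0.28 in the recovery and −0.14 to 0.72 in the control libraries, so differences from control carry a larger GC part, and the log2 fold change itself had a rho of −0.15 with GC content. Entries resembling 45S ribosomal RNA took 6.48% to 15.1% of TPM in adapted and 8.37% to 12.4% in recovery libraries. Recovery 3 stood apart from recovery 1 and 2 in the cell cycle, cytokine and matrix genes below, and values without it are given for the lists it moved most. Of 14 markers of retinal pigment epithelium, 7 were under 1 TPM in all 6 libraries, and RPE65 and DCT were listed at 0, while OTX2 was at 15.1 to 19 TPM and MITF at 13.8 to 26.1 TPM. All 7 blood cell markers and all 4 endothelial markers were under 1 TPM in all 6 libraries, and the summed blood markers ran from 0.205 to 0.385 TPM in adapted and from 0.267 to 0.5 TPM in recovery libraries. In bulk RNA, a smaller share of cells in a given phase or state and less of a transcript per cell cannot be told apart.

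CCNE1 (ENSG00000105173.14, plus strand of chromosome 19) was at 43.3, 42.6 and 42.6 TPM in the adapted libraries and at 5.52, 5.49 and 5.93 TPM in the recovery libraries. The 2 groups did not overlap, and the recovery libraries were also below the 3 control libraries, at 7.09, 6.27 and 7.88 TPM. Adapted cells held 7.58 times the CCNE1 of recovery cells by mean TPM. On the scale of log2(TPM + 1), CCNE1 fell by 2.72 (SE 0.11, adjusted p = 1.99e-10 from limma), and between −2.75 and −2.70 was found with any 1 of the 6 libraries left out. An exact permutation test of mean TPM gave p = 0.1 (2-sided), the smallest that 3 against 3 libraries allow. Against control the difference was −0.28 (limma adjusted p = 0.129). The table has 1 entry for CCNE1, so the construct and the endogenous gene are read together. Recovery cells with 46 d without doxycycline and those with 17 or 18 d had nearly the same CCNE1 level.

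Of the other cyclins of CDK2, CCNE2, which encodes cyclin E2 from a separate gene, ran opposite to CCNE1. It was at 16.2, 11.6 and 14.5 TPM in adapted and 22.1, 20.0 and 20.8 TPM in recovery libraries, beside 19.8, 23.4 and 19.8 TPM in control. All recovery libraries were thus higher than all adapted ones and lay in the range of control, but the log2 fold change of 0.55 (SE 0.22) had an adjusted p of 0.576 from limma. CCNA2, the cyclin of S phase and G2, was at 95.0, 101 and 85.1 TPM in adapted and 88.1, 81.5 and 64.8 TPM in recovery libraries (log2 fold change −0.27, adjusted p = 0.599).

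Among the kinases and their small partners, CDK2 itself differed little, with 55.8, 58.2 and 51.6 TPM in adapted and 63.7, 60.7 and 48.3 TPM in recovery libraries (log2 fold change 0.05, SE 0.10). CDK1, the kinase of mitosis, was at 147, 167 and 132 TPM in adapted and 126, 123 and 104 TPM in recovery libraries, without overlap (log2 fold change −0.33, adjusted p = 0.673 from limma). CKS2, a small subunit that docks CDKs on their substrates, was at 296, 339 and 277 TPM in adapted and 266, 236 and 169 TPM in recovery libraries (−0.46, SE 0.12, adjusted p = 0.303). Its relative CKS1B had a log2 fold change of −0.40 (adjusted p = 0.660). CDKN1A, which encodes the CDK inhibitor p21 and is a target of p53, was at 83.7, 86.9 and 82.1 TPM in adapted and 63.2, 61.8 and 79.1 TPM in recovery libraries (−0.31, SE 0.10, adjusted p = 0.459). Its control libraries were at 79.9, 83.5 and 70.5 TPM, so adapted cells were already near control (log2 fold change 0.11). Over the 20 tested members of the 23 listed for cyclin E, CDK2, their inhibitors and their ubiquitin ligases, 11 were higher and 9 lower by mean. At an unadjusted p below 0.05, 1 stood higher and 6 stood lower, beside 4.98% and 2.06% of all tested genes. The 6 became 3 without adapted 1, adapted 2 or recovery 3, and the 1 became 0 without adapted 2. The median log2 fold change was 0.02, beside 0.03 for all tested genes, and ran from −0.039 to 0.07 with 1 library left out. Apart from CCNE1, 0 of the module passed the adjusted threshold.

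**Figure D1:**
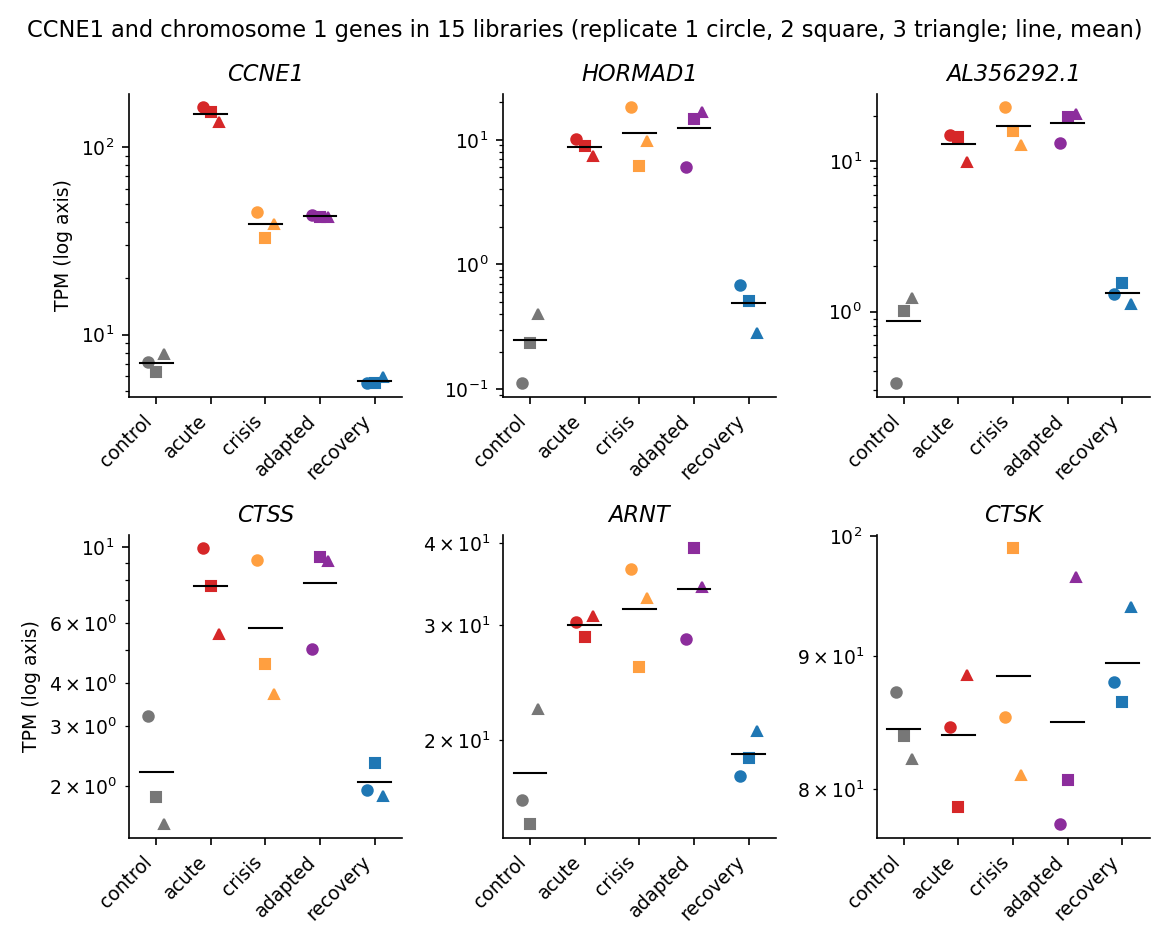
TPM (log axis) of CCNE1 and of 5 genes around HORMAD1 in the 5 groups, with 1 symbol per replicate and a line at the mean. CCNE1, HORMAD1 and AL356292.1 are high in every library with doxycycline and low in the control and recovery libraries, and CTSK has the same range in all groups.

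HORMAD1 and AL356292.1 were the other called genes, and they are neighbours on chromosome 1. HORMAD1 encodes a protein of the meiotic chromosome axis that is normally made in germ cells. It was at 6.10, 14.8 and 16.7 TPM in adapted and 0.682, 0.512 and 0.284 TPM in recovery libraries, beside 0.111, 0.234 and 0.401 TPM in control. Mean TPM in recovery cells was 3.93% of that in adapted cells, and on the log2 scale HORMAD1 fell by 3.08 (SE 0.32, adjusted p = 1.25e-04 from limma). AL356292.1, annotated as a processed pseudogene, was at 13.2, 19.8 and 20.7 TPM in adapted and 1.31, 1.55 and 1.13 TPM in recovery libraries, and fell by 3.00 (SE 0.23, adjusted p = 1.98e-06 from limma). Neither gene's adapted libraries overlapped with recovery or control libraries. Both genes reached the mean of 5 TPM only through the groups with doxycycline. A filter of at least 5 TPM in each of the 15 libraries removes both genes and left 1 called gene, CCNE1, among 9308. Reads of a pseudogene can be shared with its parent gene, so the TPM of AL356292.1 is uncertain.

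On hg38 HORMAD1 lies on the minus strand at chr1:150698060-150720895 by GENCODE release 44, and AL356292.1 on the plus strand at chr1:150780272-150780644. Between them lies CTSS, which encodes the lysosomal protease cathepsin S. CTSS was at 5.03, 9.35 and 9.15 TPM in adapted and 1.95, 2.35 and 1.87 TPM in recovery libraries, beside 3.21, 1.87 and 1.55 TPM in control. The groups did not overlap, and the log2 fold change of −1.49 (SE 0.28) had an adjusted p of 0.0675 from limma. CTSS too reached the mean of 5 TPM only through the groups with doxycycline, with means of 2.21 TPM in control and 2.06 TPM in recovery cells. ARNT, the partner of the hypoxia-inducible factors and of the dioxin receptor, begins 155.8 kb from the start of HORMAD1. It was at 28.6, 39.3 and 34.3 TPM in adapted and 17.6, 18.8 and 20.6 TPM in recovery libraries, again without overlap (−0.80, SE 0.15, adjusted p = 0.0675 from limma, and 0.029 after the GC correction).

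UBE2D3P3, a pseudogene inside the span of CTSK, was too low to be tested. It was at 3.69, 4.20 and 8.23 TPM in adapted and 0, 0.239 and 0.652 TPM in recovery libraries. CTSK, the gene of cathepsin K, lies between AL356292.1 and ARNT and did not share the pattern. Its adapted libraries were at 77.6, 80.7 and 96.5 TPM and its recovery libraries at 87.9, 86.4 and 93.9 TPM (log2 fold change 0.08, adjusted p = 0.912 from limma). GOLPH3L, a Golgi protein gene on the other side of HORMAD1, had a log2 fold change of −0.32 (adjusted p = 0.703).

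Farther out ECM1 and MCL1 ran the other way, and most of the tested genes lay near 0. ECM1, an extracellular matrix protein gene whose start is at −212.8 kb from that of HORMAD1, was at 19.4, 21.6 and 19 TPM in adapted, 29.3, 29.6 and 37.9 TPM in recovery and 37.2, 33.2 and 33.2 TPM in control libraries (log2 fold change 0.66, SE 0.12, adjusted p = 0.0675 from limma). MCL1, the anti-apoptotic BCL2 relative, had a log2 fold change of 0.37 (adjusted p = 0.243). In all, 42 genes within 500 kb of HORMAD1 had a mean of at least 0.3 TPM and 26 of them were tested. Of the 26, 9 were lower and 17 higher by mean, 4 did not overlap and were lower, 7 did not overlap and were higher, and 2 were called. Of all tested genes 59.4% were higher by mean, 3.33% did not overlap and were lower, 9.07% did not overlap and were higher, and 0.0294% were called. The 4 lower without overlap were HORMAD1, CTSS, AL356292.1 and ARNT, all between 0 and 155.8 kb on the same side of the HORMAD1 start. All but ARNT passed the filter only through the groups with doxycycline. In every library with doxycycline these 4 genes were above every control and recovery library. Mean CCNE1 was 151, 38.9 and 42.8 TPM in acute, crisis and adapted cells. In the same order HORMAD1 was at 8.81, 11.3 and 12.5 TPM and AL356292.1 at 13.1, 17.2 and 17.9 TPM. CTSS was at 7.72, 5.82 and 7.84 TPM and ARNT at 30.0, 31.8 and 34.1 TPM. The drug and induced cyclin E1 were always present together, and which of them these genes follow was not tested. The sources used here give neither the place of the construct in the genome nor the strand setting of the quantification.

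**Figure D2:**
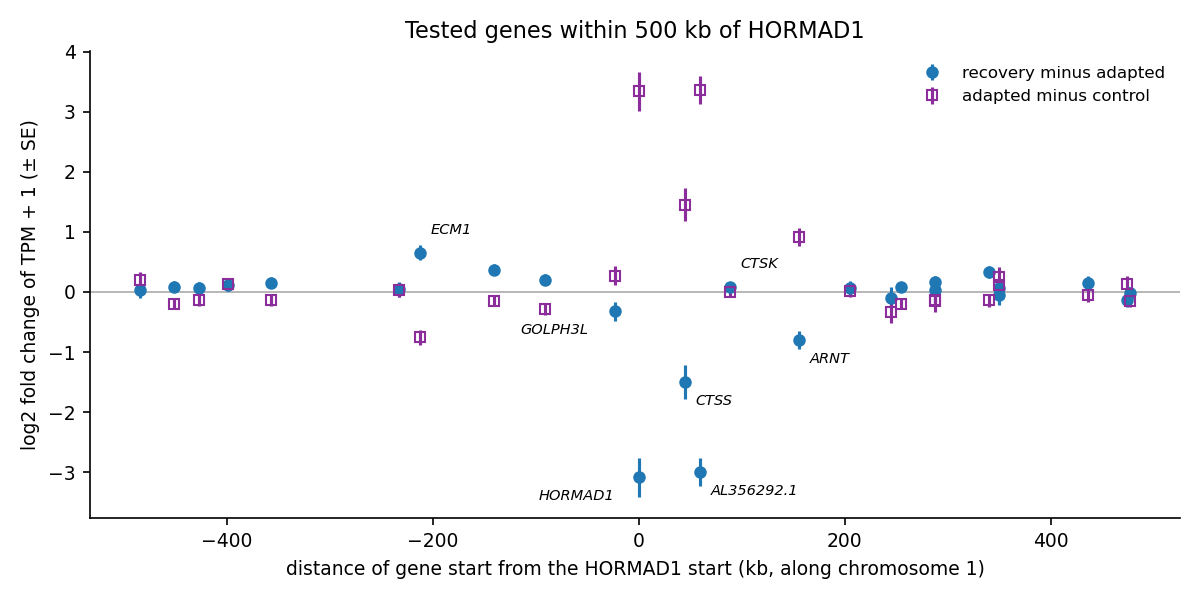
Log2 fold change of TPM + 1 (± SE from limma, n = 3 libraries per group) of the 26 tested genes within 500 kb of HORMAD1, against the distance of each gene's start from that of HORMAD1. Recovery minus adapted (filled circles) is −3.08 at HORMAD1 and −0.80 at ARNT, where adapted minus control (open squares) is 3.34 and 0.91, and CTSK between them is near 0 in both.

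The transcripts that stood higher after withdrawal were led by inflammatory genes. NF-kB is a dimeric transcription factor held in the cytoplasm by IkB proteins, and once released it turns on cytokines, chemokines and its own inhibitors. The core promoters of several of its targets carry a kappa-B element close to the start of transcription, and the 150 bases before the start of CXCL8, IL6 and CXCL3 are shown because these cytokines are described next (RefSeq, GRCh38.p14, each read 5′ to 3′ on the gene's own strand, with matches to GGANTTTCC in capitals).
CXCL8 (chr4:73740419-73740568, plus strand): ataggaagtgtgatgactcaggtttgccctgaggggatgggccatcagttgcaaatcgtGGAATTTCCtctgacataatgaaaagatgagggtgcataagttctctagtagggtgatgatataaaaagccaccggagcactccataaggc
IL6 (chr7:22727050-22727199, plus strand): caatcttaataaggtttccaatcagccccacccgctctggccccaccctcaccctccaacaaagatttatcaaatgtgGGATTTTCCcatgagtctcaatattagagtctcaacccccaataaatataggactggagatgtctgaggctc
CXCL3 (chr4:74038690-74038839, minus strand): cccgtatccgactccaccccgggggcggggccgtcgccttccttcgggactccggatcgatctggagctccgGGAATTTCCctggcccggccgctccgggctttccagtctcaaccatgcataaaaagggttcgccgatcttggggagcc
In the 250 bases upstream of the start, on either strand, GGANTTTCC was present in 8 of the 13 genes of the NF-kB list that had a RefSeq promoter (61.5%) and in 401 of all 27305 promoters (1.47%). Of the 8 tested genes with such a promoter, 5 had a match (62.5%). The list holds NF-kB genes by choice, so a high share was set in advance and is no result of these data. A match describes the letters and shows no binding.

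IL1B, the inflammasome cytokine interleukin 1 beta, was at 17.7, 13.4 and 13.7 TPM in adapted and 33.1, 30.4 and 39.7 TPM in recovery libraries, beside 34.6, 27.6 and 21.9 TPM in control. Every recovery library held more than every adapted one (log2 fold change 1.16, SE 0.21, adjusted p = 0.0675 from limma). IL6, the acute phase cytokine, was at 10.4, 7.99 and 8.4 TPM in adapted and 16.9, 15.8 and 36.9 TPM in recovery libraries (1.19, SE 0.28, adjusted p = 0.222). The neutrophil chemokine CXCL8 was the most abundant of the list, at 217, 189 and 180 TPM in adapted and 365, 303 and 523 TPM in recovery libraries (0.98, adjusted p = 0.288). For both, recovery 3 was the highest of the 6 libraries and no libraries of the groups overlapped.

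CXCL3, a related chemokine, was at 6.48, 5.99 and 4.64 TPM in adapted and 11.3, 8.11 and 11.0 TPM in recovery libraries (0.73, adjusted p = 0.347). CSF2, the growth factor GM-CSF, was at 11.3, 14.3 and 11.4 TPM in adapted and 19.3, 20.9 and 26.2 TPM in recovery libraries (0.79, adjusted p = 0.386). The NF-kB inhibitor TNFAIP3 was at 6.01, 6.10 and 4.82 TPM in adapted and 6.73, 8.88 and 11.2 TPM in recovery libraries (0.56, adjusted p = 0.534). These 3 genes also had no overlap between groups. LIF, a cytokine of the interleukin 6 family, had a log2 fold change of 0.44 (adjusted p = 0.504), and NFKBIA, which encodes the inhibitor IkB-alpha, one of 0.15 (adjusted p = 0.823). IL11 had 0.07, with −0.01 when recovery 3 was left out. CCL2, the monocyte chemokine, and NFKBIA were the 2 members whose adapted and recovery libraries all stayed below every control library. CCL2 was at 15.6, 10.7 and 12.9 TPM in control, 2.32, 2.25 and 6.98 TPM in adapted and 4.33, 4.36 and 7.16 TPM in recovery libraries. TNFAIP3, LIF, CCL2, NFKBIA and IL11 were named after their values were seen, as the rest of the tested members of the list.

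Of the 15 listed cytokines and NF-kB genes 10 were tested, and all 10 were higher by mean in recovery cells, where 59.4% of all tested genes were. At an unadjusted p under 0.05, 7 were higher and 0 lower, and the same number did not overlap. Of all tested genes 4.98% were higher at that level and 9.07% were higher without overlap. The list's median log2 fold change was 0.65, or 0.62 after rescaling, 0.61 after the GC correction and 0.53 without recovery 3, and 0 members passed the adjusted threshold. In adapted against control cells the median was −0.77 and in recovery against control cells 0.03, and 6 of the 10 genes had all adapted libraries below every control and every recovery library. The control and acute groups were uneven for these genes, with replicate 1 the highest of its group for IL6, IL1B, CXCL8, CXCL3 and CSF2, so the control range is wide.

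**Figure D3:**
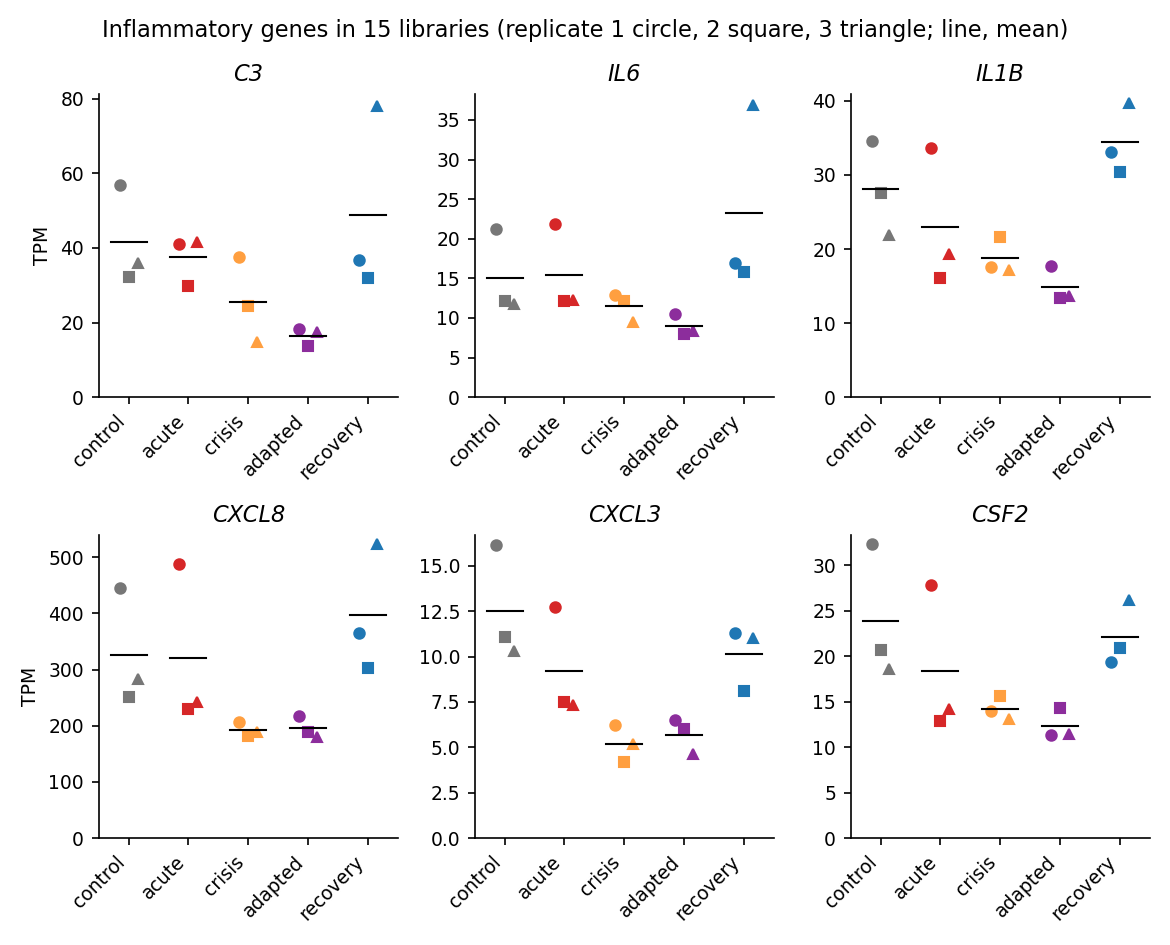
TPM of C3 and 5 cytokine genes in the 5 groups, with 1 symbol per replicate and a line at the mean. For all 6 genes the 3 adapted libraries lie below the 3 recovery and the 3 control libraries, and recovery 3 is the highest recovery library for all but CXCL3.

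Outside that list, complement component C3 had the largest rise by mean among genes without overlap. It was at 18.2, 13.8 and 17.4 TPM in adapted, 36.6, 31.8 and 78.1 TPM in recovery and 56.9, 32.1 and 35.8 TPM in control libraries (log2 fold change 1.41, SE 0.31, adjusted p = 0.186 from limma, and 1.02 at the lowest with 1 library left out). SERPINB2, the plasminogen activator inhibitor 2, was at 10.1, 7.08 and 6.17 TPM in adapted and 23.8, 14.3 and 16.0 TPM in recovery libraries (1.11, adjusted p = 0.293). GBP2, an interferon-induced GTPase, was at 7.11, 6.51 and 8.15 TPM in adapted and 9.96, 11.8 and 21.8 TPM in recovery libraries (0.84, adjusted p = 0.320). Of the 10 tested members of a list of interferon-stimulated genes, however, 0 had an unadjusted p under 0.05 and the median was 0.07.

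DUSP1, a phosphatase of MAP kinases, was at 13.0, 12.2 and 13.6 TPM in adapted and 18.9, 20.0 and 24.7 TPM in recovery libraries (0.66, SE 0.13, adjusted p = 0.081 from limma, or 0.046 with the GC correction). ITGA11, the alpha 11 integrin, had a log2 fold change of 0.80 (adjusted p = 0.479). AC006064.6 (1.04, adjusted p = 0.081) overlaps NOP2 and CHD4 on the same strand of chromosome 12, and SULT1A3 (0.96, adjusted p = 0.310) has a near-identical copy, so reads of either may be misassigned.

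Matrix, contractile and YAP target genes also stood higher, with recovery 3 the farthest from the adapted libraries. YAP and TEAD proteins activate genes when cells spread or are under tension, and SRF with its cofactors does so for actin and muscle genes. All 16 tested members of 22 extracellular matrix genes were higher by mean, 8 at an unadjusted p under 0.05 and 6 without overlap. Of all tested genes 59.4% were higher by mean, 4.98% at that level and 9.07% without overlap. The median of the list was 0.30. Without recovery 3 the median was 0.09 and 2 members were at an unadjusted p under 0.05, and without recovery 1 these were 0.42 and 14. Against control the median of the matrix list was −0.12 in adapted and 0.17 in recovery cells, beside 0.05 and 0.08 for all tested genes. FBN1, which encodes the microfibril protein fibrillin 1, was at 153, 163 and 149 TPM in adapted and 177, 189 and 324 TPM in recovery libraries (0.51, adjusted p = 0.436). LOX, which cross-links collagen, had 0.30 (adjusted p = 0.479) and COL4A1, a chain of basement membrane collagen, 0.32 (adjusted p = 0.479).

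Of 13 tested YAP and TEAD targets, 11 were higher by mean, 6 at an unadjusted p under 0.05, with a median of 0.16. Without recovery 3 the count at that level was 4 and the median 0.13. Of all tested genes 59.4% were higher by mean and 4.98% at that level. Against control the median of the YAP and TEAD targets was −0.006 in adapted and 0.24 in recovery cells. The list thus moved away from control on withdrawal. F3, tissue factor, was at 171, 190 and 194 TPM in adapted and 239, 239 and 319 TPM in recovery libraries (0.51, SE 0.11, adjusted p = 0.186). ANKRD1, a nuclear ankyrin repeat protein, was at 344, 374 and 425 TPM in adapted and 483, 511 and 587 TPM in recovery libraries, and at 316, 268 and 324 TPM in control. It was thus farther from control after withdrawal than before it, with a log2 fold change of 0.47 against adapted cells (adjusted p = 0.236) and a rise of 0.80 against control (SE 0.11, adjusted p = 0.00815 from limma), a contrast in which 3 genes (0.0294%) were called higher. TGFB2, the growth factor TGF-beta 2, had 0.63 (adjusted p = 0.386) and CCN1, a matricellular protein, 0.37 (adjusted p = 0.310). Of 12 tested SRF and smooth muscle genes 11 were higher by mean and 5 at an unadjusted p under 0.05, with a median of 0.18. The count was 3 after rescaling, where 390 of all 10196 tested genes were higher at that level. It was 2 without recovery 3, where the median was 0.11. Against control the SRF and smooth muscle genes had a median of −0.03 in adapted and 0.20 in recovery cells, so they too moved away from control. Among them VCL, vinculin, was at 239, 273 and 271 TPM in adapted and 305, 305 and 323 TPM in recovery libraries (0.25, adjusted p = 0.421), and the log2 fold changes of CALD1, MYL9 and TPM1, which encode contractile proteins, were 0.40, 0.42 and 0.32 (adjusted p = 0.479, 0.692 and 0.410).

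The genes of mitosis stood lower after withdrawal. Many are transcribed in G2 by the MuvB complex, which binds the cell cycle homology region, and by NF-Y at CCAAT boxes. Upstream sequences of CCNB2 and CDC20 are shown as examples (RefSeq, GRCh38.p14, 5′ to 3′ on the gene's strand, with CCAAT and the homology-region core TTTGAA in capitals where they stand on that strand).
CCNB2 (chr15:59104996-59105145, plus strand): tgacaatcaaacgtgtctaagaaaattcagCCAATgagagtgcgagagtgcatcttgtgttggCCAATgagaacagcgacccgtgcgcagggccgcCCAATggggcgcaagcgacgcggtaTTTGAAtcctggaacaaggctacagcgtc
CDC20 (chr1:43358831-43358980, plus strand): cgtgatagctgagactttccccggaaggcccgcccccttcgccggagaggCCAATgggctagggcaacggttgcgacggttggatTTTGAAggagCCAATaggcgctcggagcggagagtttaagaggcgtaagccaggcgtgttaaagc
Over the 250 bases upstream, on either strand, CCAAT was in 50 of the 75 promoters of the mitotic lists matched (66.7%) and in 33.0% of all 27305, and TTTGAA in 31 of the 75 (41.3%) and in 13.6% of all. The lists are genes of mitosis by choice, and the letters say nothing of which factor acted here.

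For entry into mitosis, 20 of 21 genes were lower by mean, 12 at an unadjusted p under 0.05 and 7 without overlap, and the median log2 fold change was −0.27. Of all tested genes 40.6% were lower by mean, 2.06% at that level and 3.33% without overlap. The median of the list against control was 0.28 in adapted and −0.02 in recovery cells. CCNB1, the cyclin B1 that activates CDK1, was at 211, 204 and 173 TPM in adapted, 168, 166 and 123 TPM in recovery and 154, 168 and 151 TPM in control libraries (−0.37, SE 0.11, adjusted p = 0.410 from limma). CCNB2 was at 112, 116 and 95.7 TPM in adapted and 95.6, 93.4 and 75.2 TPM in recovery libraries (−0.29, adjusted p = 0.435). The centrosome kinase NEK2 was the most even, at 54.6, 58.8 and 47.6 TPM in adapted, 43.4, 41.8 and 39.9 TPM in recovery and 37.7, 36.2 and 40.9 TPM in control libraries (−0.35, SE 0.10, adjusted p = 0.362). PKMYT1, an inhibitory kinase of CDK1, had −0.39 (adjusted p = 0.479).

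Kinetochore genes and kinesins had 36 of 37 lower by mean, 11 at an unadjusted p under 0.05 (2.06% of all tested genes), and a median of −0.22. Condensin and chromosome structure genes had 12 of 12 lower, 3 at that level, and a median of −0.24, and genes of the anaphase-promoting complex and mitotic exit had 13 of 18 lower, 4 at that level, and −0.13. UBE2C, the ubiquitin-conjugating enzyme of that complex, was at 240, 235 and 201 TPM in adapted and 182, 178 and 123 TPM in recovery libraries (−0.50, SE 0.12, adjusted p = 0.244). CDC20, its activator, was at 153, 156 and 139 TPM in adapted and 122, 117 and 84.2 TPM in recovery libraries (−0.49, adjusted p = 0.303). The log2 fold changes of the checkpoint protein gene MAD2L1, the centromere gene CENPN and the condensin gene NCAPH were −0.33, −0.24 and −0.38 (adjusted p = 0.427, 0.504 and 0.347).

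Recovery 3 lay farthest from the adapted libraries in several lists. Written as the median deviation of the list from each gene's mean over the 15 libraries, mitotic entry stood at 0.12, 0.20 and −0.02 in the adapted libraries and at −0.02, −0.06 and −0.38 in the recovery libraries. The cytokine list stood at −0.33, −0.36 and −0.56 in adapted libraries and at 0.11, 0.17 and 0.45 in recovery libraries, and the matrix list at −0.13, −0.14 and −0.21 and at −0.06, 0.03 and 0.54. Without recovery 3 the medians of mitotic entry, kinetochore and condensin genes were −0.15, −0.11 and −0.14, and the members at an unadjusted p under 0.05 were 3, 1 and 1. These members were also fewer without adapted 1, at 5, 4 and 2, and without adapted 2, at 4, 6 and 1. After the GC correction they were 16, 24 and 9, where 556 of all 10185 tested genes were lower at that level. The anaphase-promoting complex list had a median of −0.08 without recovery 3 and −0.04 without adapted 2. What sets recovery 3 apart was not tested.

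**Figure D4:**
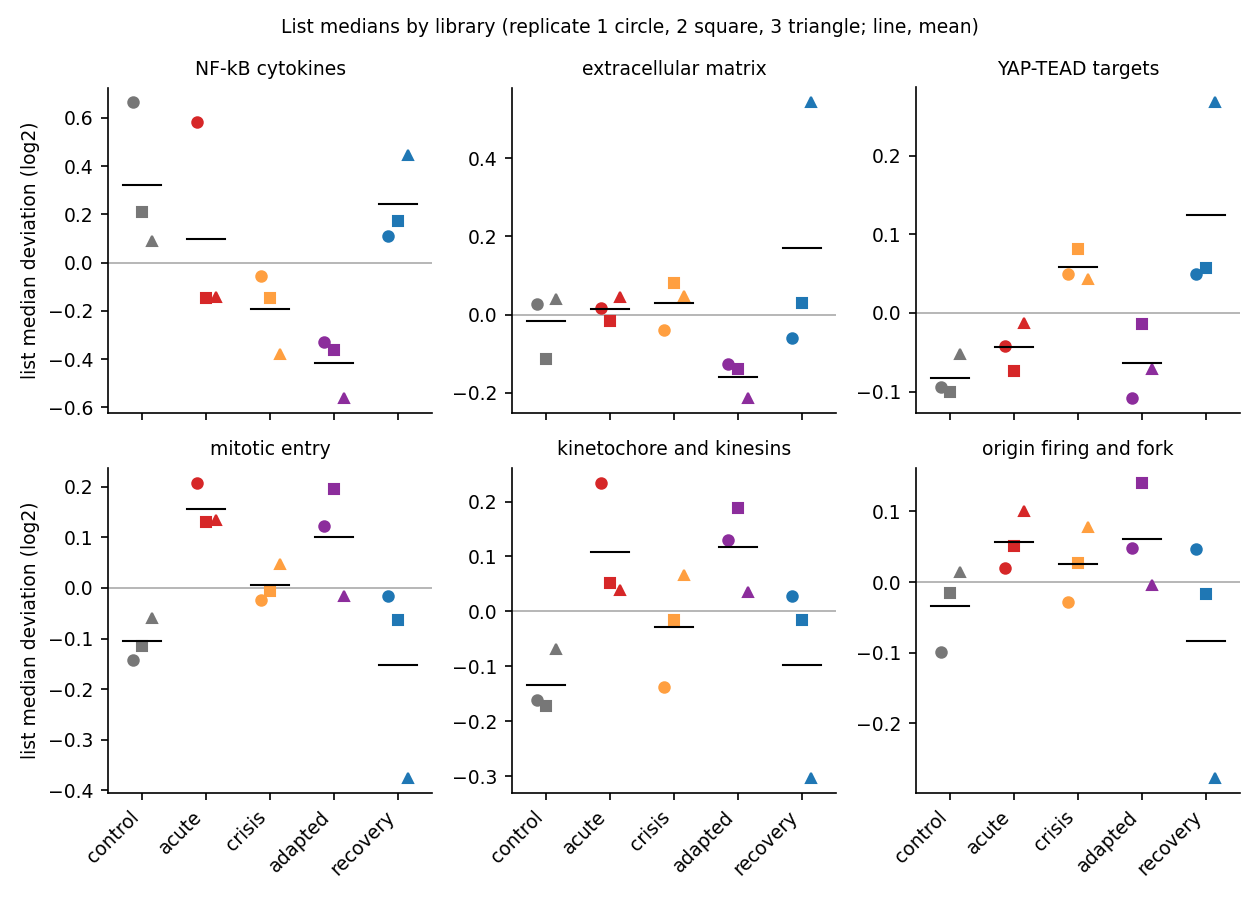
Median deviation (log2) of the members of 6 gene lists from each gene's mean over the 15 libraries, with 1 symbol per library and a line at the group mean. Recovery 3 (triangle) is the highest recovery library for cytokines (0.45), matrix (0.54) and YAP targets (0.27) and the lowest for the 3 cell cycle lists (−0.38 for mitotic entry).

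DNA replication is the step that cyclin E disturbs. Of the 16 genes of origin licensing 12 were lower by mean and 1 at an unadjusted p under 0.05. Of all tested genes 40.6% and 2.06% were, and the median of the list was −0.07. Without recovery 3 the median turned to 0.03, with 9 genes higher and 7 lower, and the count at that level was 3 after rescaling, 5 after the GC correction and 0 without adapted 1, adapted 2 or recovery 3. The gene was MCM5, a subunit of the replicative helicase, at 90.5, 85.6 and 77.2 TPM in adapted and 77.5, 71.4 and 57.5 TPM in recovery libraries (−0.30, adjusted p = 0.602). CDT1, which loads the helicase at origins, was at 19.4, 18.4 and 14.4 TPM in control, 13.4, 13.8 and 9.85 TPM in adapted and 11.7, 11.2 and 7.79 TPM in recovery libraries. All 6 libraries were below control, and between adapted and recovery cells the log2 fold change was −0.26 (adjusted p = 0.781). The helicase subunit MCM7 and the origin recognition subunit ORC6 had −0.24 and −0.23 (adjusted p = 0.723 and 0.746), and the other 12 licensing genes lay between −0.13 and 0.14. Of 34 genes of origin firing and the fork, 28 were lower by mean with a median of −0.16, and 1 had an unadjusted p under 0.05. That count was 5 after rescaling, 9 after the GC correction, 8 without recovery 1 and 0 without recovery 3, where the median was −0.04. Beside the counts of the licensing and firing lists, 371 of all 10196 tested genes were lower at that level after rescaling. After the GC correction 556 of 10185 were, and without recovery 1 353 of 10196.

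Among 27 genes of the replication checkpoint and repair, 22 were lower by mean and 4 at an unadjusted p under 0.05, with a median of −0.14. Of all tested genes 2.06% were lower at that level. Without recovery 3 the count and median of the list were 2 and −0.05, and after the GC correction 8 and −0.18. After that correction 556 of all 10185 tested genes were lower at that level. The helicase BLM was at 12.0, 12.0 and 9.72 TPM in adapted, 7.73, 8.79 and 7.02 TPM in recovery and 8.08, 7.16 and 7.77 TPM in control libraries (−0.47, adjusted p = 0.468). XRCC2, a gene of homologous recombination, had −0.37 (adjusted p = 0.544), and TK1, thymidine kinase, −0.37 (adjusted p = 0.507). Of 23 tested p53 targets 19 were lower by mean, 4 at an unadjusted p under 0.05, and the median was −0.08, or −0.15 without recovery 3. Against control the median of these targets was 0.20 in adapted and 0.21 in recovery cells, so the list did not return. For all tested genes these medians were 0.05 and 0.08. The apoptosis effector BAX was at 166, 191 and 175 TPM in adapted and 154, 137 and 120 TPM in recovery libraries (−0.38, SE 0.10, adjusted p = 0.316), and the p53-induced nuclease AEN had −0.30 (adjusted p = 0.479). In adapted against control cells the log2 fold changes of BAX and AEN were 0.18 and −0.006. TRIML2, a tripartite motif protein, kept most of its rise. It was at 7.26, 9.21 and 10.6 TPM in control, 18.2, 19.3 and 21.0 TPM in adapted and 16.6, 14.9 and 16.2 TPM in recovery libraries, with −0.28 between the last 2 groups (adjusted p = 0.692) and 0.76 against control after withdrawal (adjusted p = 0.024).

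**Figure D5:**
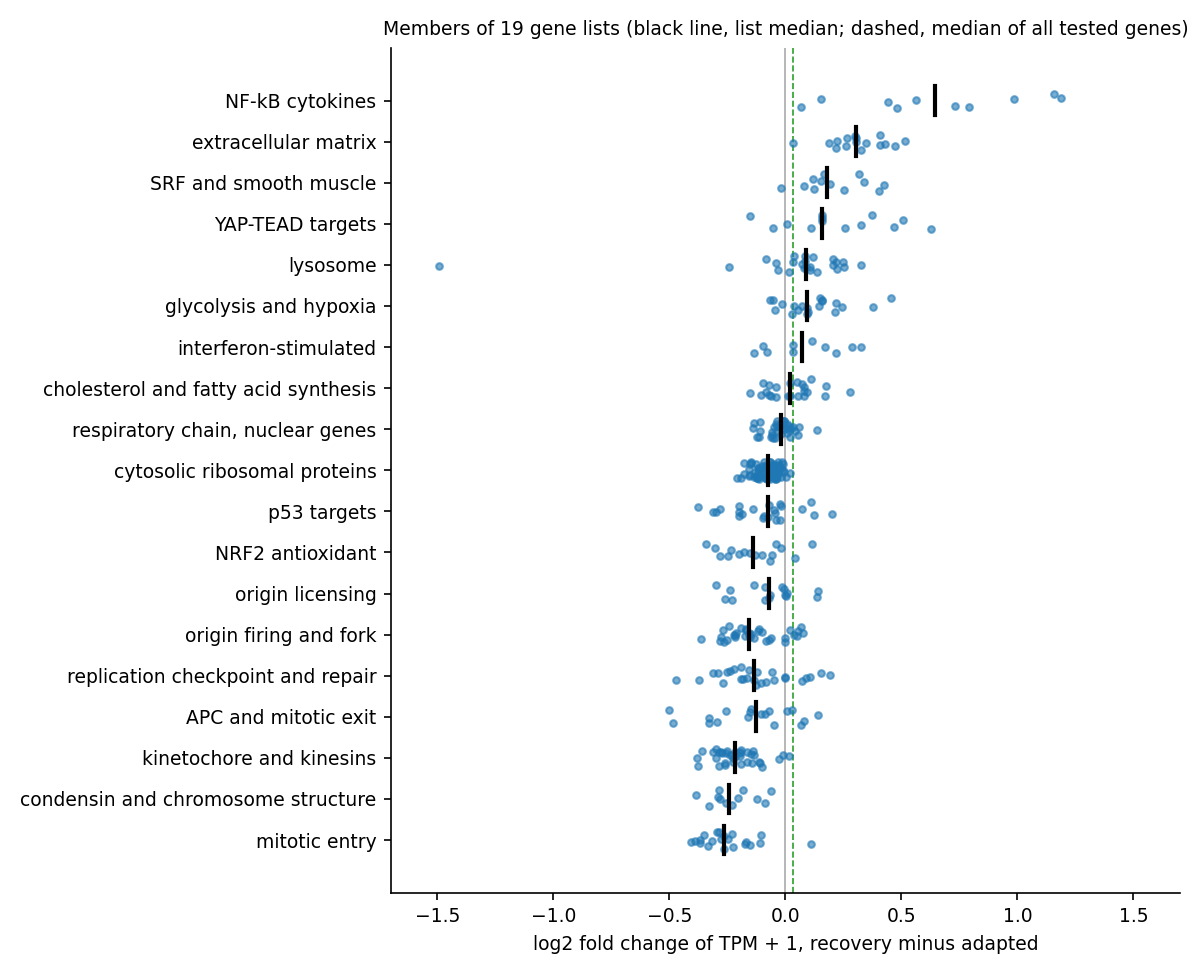
Log2 fold change of TPM + 1, recovery minus adapted, of the tested members of 19 gene lists (points, n = 3 libraries per group), with the list median in black and the median of all tested genes dashed at 0.03. The cytokine list has the highest median (0.65) and mitotic entry the lowest (−0.27), and the lone lysosome gene at −1.49 is CTSS.

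The lowest genes of the comparison outside these lists were few. ID2, an inhibitor of differentiation factors, had even values of 17.0, 17.2 and 17.2 TPM in adapted and 9.57, 10.8 and 10.4 TPM in recovery libraries (−0.69, SE 0.16, adjusted p = 0.186), beside 11.4, 18.1 and 19.7 TPM in control. The zinc finger gene ZNF414 had −0.66 (adjusted p = 0.655). AC006557.6, a transcript model without experimental support in the annotation, and the pseudogenes PPIAP22 and AL590867.2 had −1.31, −1.22 and −0.75 (adjusted p = 0.288, 0.660 and 0.641), and the reads of the pseudogenes can come from their parent genes. Of the 4 tested among 34 meiotic and germline genes, HORMAD1 was called. MND1, a recombination cofactor, was at 26.3, 28.5 and 28.9 TPM in adapted and 22.9, 23.3 and 19.5 TPM in recovery libraries (−0.34, adjusted p = 0.521).

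Ribosomal protein genes had 74 of 76 lower by mean, with a median of −0.07 and 0 at an unadjusted p under 0.05, but 5 after rescaling and 11 after the GC correction. Without adapted 2 their median was −0.015. Of all tested genes 59.4% were higher and 40.6% lower by mean. At that level 2.06% of all were lower, or 371 of 10196 after rescaling and 556 of 10185 after the GC correction. NRF2 antioxidant genes had 14 of 16 lower (median −0.14, 0 at that level, but 5 after rescaling and 6 after the GC correction). Transcripts of mitochondrial DNA had 12 of 13 higher (median 0.14, 0 at that level), with a median of 0.04 without recovery 3. Lysosomal genes had 19 of 24 higher with a median of 0.09, and glycolysis and hypoxia genes 16 of 20 with 0.09. D cyclins with INK4 inhibitors and the RB and E2F factors had medians of 0.02 and −0.001 and 0 genes at an unadjusted p under 0.05. CCND1, the D-type cyclin of G1, was at 302, 353 and 337 TPM in adapted and 357, 345 and 333 TPM in recovery libraries (0.06, adjusted p = 0.915).

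Each tested gene was also placed by whether its 3 adapted libraries lay outside the control range and whether its recovery libraries lay away from the adapted ones in the direction of control. Adapted libraries lay above all control and all recovery libraries for 138 genes (1.35%) and below all of them for 230 (2.26%). Adapted and recovery libraries overlapped and lay together above control for 677 genes (6.64%) and below control for 493 (4.84%). After the GC correction the 4 counts were 256, 297, 315 and 398. The classes share the adapted libraries, and no test was made. Among the 213 genes at least 1.5 times apart between the adapted and control means, a limit set after seeing the data, 22 were above and 37 below both other groups, and 24 and 41 had stayed above and below control. CCNE1, HORMAD1, AL356292.1, CTSS and ARNT are among the 22, and IL1B, IL6, CXCL8, CXCL3, CSF2, TNFAIP3, C3, SERPINB2 and ECM1 among the 37. The 22 also hold TRIML2, whose recovery libraries were below every adapted one and still above every control, so a place in these classes does not mean a full return. Of the 41, CCL2 was described above.

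AC008440.2, a long noncoding RNA antisense within MYADM, was among the 24 that stayed above. It was listed at 0 in all 3 control libraries, at 10.3, 12.9 and 4.59 TPM in adapted and at 11.7, 10.2 and 14.5 TPM in recovery libraries, and since the strand setting is unknown its reads cannot be told from those of MYADM. GPNMB, a transmembrane glycoprotein, was among the 677, at 91.2, 95.7 and 101 TPM in control, 122, 127 and 153 TPM in adapted and 149, 168 and 149 TPM in recovery libraries. Its adapted and recovery libraries overlapped (0.22 on the log2 scale, limma adjusted p = 0.702), and against control it rose by 0.69 in recovery cells (SE 0.10, adjusted p = 0.00852). Recovery libraries lay above every control and adapted library for 411 genes (4.03%) and below them for 88 (0.863%). TEDC1, a centriole protein gene and 1 of the 88, was at 18.6, 16.6 and 14.2 TPM in control, 11.9, 10.7 and 11.8 TPM in adapted and 9.76, 6.39 and 7.63 TPM in recovery libraries (−0.50 between the last 2 groups, adjusted p = 0.330). AC008440.2, GPNMB and TEDC1 were added after their values were seen.

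Over all 15 libraries the genes most like CCNE1 on the log2 scale, by Pearson's r, were EME1 (0.886), CDKN1A (0.880), EDA2R (0.859), HORMAD1 (0.856) and AL356292.1 (0.853). The 3 acute libraries weigh on these values, since CCNE1 was highest there, and libraries of 1 group are not independent points. EME1, a nuclease subunit that resolves recombination intermediates, was at 11.5, 12.0 and 10.8 TPM in adapted and 10.7, 9.27 and 9.34 TPM in recovery libraries (log2 fold change −0.21, adjusted p = 0.726). EDA2R, a receptor induced by p53, was at 6.46, 6.96 and 7.64 TPM in adapted and 5.43, 5.71 and 6.87 TPM in recovery libraries (−0.20, adjusted p = 0.793).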

How the data were processed

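RNA of 15 libraries was sequenced, and the authors pseudoaligned the single-end reads by Kallisto (hg38) and deposited TPM for 60603 entries. Library sums were 999659 to 999726. Beside them stand log2 fold changes and adjusted p-values of the authors' DESeq2 comparisons with control, which were not used. The sources used here give no strand setting. Columns were assigned by the sample labels, and 0 were left without a sample. After 45 pseudoautosomal copies were dropped, 60558 genes remained, of which 60261 matched GENCODE release 44 (positions, GC content).

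Values were transformed to log2(TPM + 1), which understates changes of low genes. The 10196 genes averaging 5 TPM or more were fitted with limma 3.58.1 in R 4.3.3 (5 groups, eBayes with trend, prior degrees of freedom 6.63), 2-sided, and called where the Benjamini-Hochberg adjusted p was below 0.01. Adjusted p-values in the text come from this fit unless another setting is named beside them. TPM keeps no depth, so no counting interval was computed. The p-values measure the spread between these 3 libraries per group. On simulated data, 22 of 67 genes shifted by 0.5, 58 of 67 shifted by 1 and 66 of 66 shifted by 2 on the log2 scale were called, and 1 of 9996 unchanged genes. The simulated noise was independent between genes and libraries, with no GC trend and no library set apart, so these shares need not hold here.

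Named genes are CCNE1, called genes, the 10 largest rises and falls without overlap at an unadjusted p under 0.05, up to 4 members of each list with the smallest p, the cyclin E module, origin licensing, neighbours of HORMAD1 and the 5 genes most like CCNE1. The members and lists were chosen with earlier results of these data known. Alternatives were pseudocounts of 0.1 and 5, other filters, median-of-ratios rescaling, a GC loess (span 0.3), a replicate block, no variance trend, a threshold of 0.05, the 6 libraries alone and each library left out. List counts under these settings and the limit of 1.5 times were added after seeing the data. Promoters are RefSeq's. Tables and plots used Python 3.11.15, pandas 2.3.3, scipy 1.17.1 and matplotlib 3.10.9. Some items are not reported here.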

Additional observations from a re-analysis of the deposited data

How the results depend on the processing

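CCNE1, HORMAD1 and AL356292.1 were called lower under every alternative except the filter of at least 5 TPM in every library, which tests 9308 genes and left CCNE1 alone (1 called, 1 lower). With no filter on the mean, and only a value above 0 TPM in at least 3 libraries required (33212 genes), 7 genes were called, 6 lower and 1 higher. The 4 added were AL451139.1, NTF6B, RN7SL697P and SUMO2P20, each listed at 0 in all libraries of the other 4 groups. Each was thus tested only through the group where it was present, at 2.52 TPM or less. The other groups had no spread for it, so these calls carry no weight. Counts were 3 with each of the 6 libraries left out, and at an adjusted p under 0.05 they were 3, or 11 after the GC correction. Deviations of same-numbered adapted and recovery libraries correlated at 0.196, 0.0436 and 0.213, and those of differently numbered ones at −0.267 to 0.0848. Adapted 2 was nearest to recovery 1 (0.0848). These values cannot tell whether libraries with the same number share a culture. With the replicate block 3 genes were called, and with the block and the GC correction 4, the 1 higher being ECM1 (0.64, adjusted p = 0.00773 from limma).

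Unadjusted counts ran from 258 (without recovery 3) to 756 (without recovery 1) higher and from 83 (without adapted 2) to 365 (without adapted 3) lower. Genes lower without overlap were 340, but 709 after rescaling and 775 after the GC correction. Genes above both control and recovery in adapted cells were 138, but 254 after rescaling, 256 after the GC correction and 22 at 1.5 times, where those below were 37. Genes that stayed above control were 677, but 315 after the GC correction and 24 at 1.5 times, and those that stayed below were 41 there. Of the genes whose log2 fold change is printed, with 1 library left out, CDK2 ran from −0.0254 to 0.17, IL11 from −0.0437 (−0.0127 without recovery 3) to 0.13 and CCND1 from −0.0011 to 0.11, and no other turned. The cause of these shifts was not tested. Read depth is unknown, so what it limits cannot be given.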
